A study of Arabidopsis thaliana with 9 samples.

Results

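The comparison described here set leaves of 2 Arabidopsis thaliana lines carrying a DEK1 calpain transgene, as 1 group, against leaves of wild type. It used the 6 arrays labelled calpain overexpressing or calpain null, 3 from each line, and the 3 wild-type arrays, which are 9 of the 9 arrays of the series. The arrays were chosen by their titles alone, and each line kept a mean of its own in the model, so that the shift given is the average of both lines against wild type. The question it addresses is which leaf transcripts differ from wild type on average over both lines.

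Wild type was Col-0. Both other lines were in the Col-0 background, had the DEK1 locus At1g55350 knocked out by T-DNA, and differed by transgene. One carried the ADEK1 calpain and was labelled overexpressing, and the other carried a transgene that the labels spell "ADEK1 calpian null". Knock-out and transgene were therefore present in all 6 transgenic arrays and in no wild-type array, and their shares in a common shift cannot be told apart. The labels do not name the promoter of either transgene, say what null stands for, or say how many independent lines or plants were sampled, so a p-value covers only how much these arrays varied, which may be technical. Leaves were taken at growth stage 1.14 from plants kept in the cold for 3 days as seeds, put in soil after 7 days on plates, and grown at 21 °C in short days with 6 plants in a pot.

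DEK1 is the calpain of land plants, a large protein of the plasma membrane whose cytoplasmic end holds a calcium-dependent cysteine protease. It is needed to form and keep the epidermis, and plants with altered DEK1 activity are known for changes in cell division, cell walls and organ growth. The annotation used here paired 0 probe sets with DEK1, so its own transcript, and with it a direct check of the labels, is not analysed here.

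Each array gave a MAS5 signal, a linear measure of brightness in arbitrary units, for 22810 probe sets, and the median signal lay between 33.1 and 35.7 on all 9 arrays. The arrays numbered 1 of both transgenic lines lay nearest wild type. Signals over 2-fold from the wild-type mean were counted for 225 probe sets on the calpain null array numbered 1, against 379 and 476 on the arrays numbered 2 and 3. The counts were 198, 541 and 760 on the calpain overexpressing arrays, and 133, 95 and 59 on the wild-type arrays, each set against the mean of the other 2. The control signal for 25S rRNA was 167 and 160 on those 2 arrays and 208 to 384 on the other 7, and its part in the difference was not tested. The leaf genes RCA, which encodes Rubisco activase, and LHCB4.2, of the light-harvesting antenna, had signals of 4629 or more and 3796 or more on every array. The root marker PYK10 ranged from 9.96 to 63.9 on 8 arrays and reached 112 on calpain overexpressing array 3, and the shoot meristem marker CLV3 stayed at or below 3.98.

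**Figure D1:**
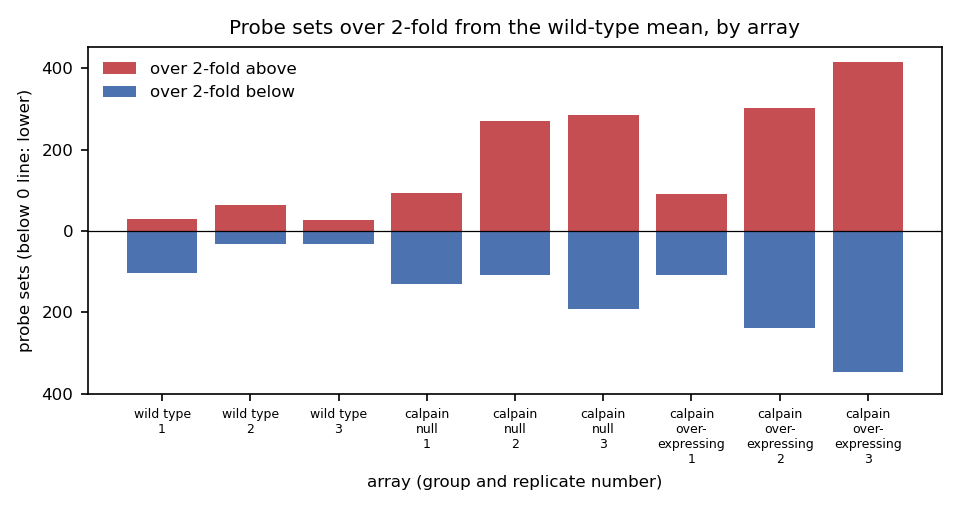
For each of the 9 arrays, bars give the number of tested probe sets whose log2 signal lay over 2-fold above (red) or below (blue, drawn downward) the wild-type mean; a wild-type array is set against the other 2. The arrays numbered 1 of both transgenic lines had 225 and 198 such probe sets, and the other 4 transgenic arrays 379 to 760.

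Leaves of both lines together differed from wild type in 89 of 14151 probe sets tested (0.629%), of which 42 were higher (0.297%) and 47 lower (0.332%). A probe set was called at an adjusted p under 0.05 in limma's moderated test with Benjamini-Hochberg adjustment over all probe sets tested. Among genes with a single locus, the lipid-transfer-like gene AT5G55450, the auxin-conjugating enzyme gene IAGLU and the protease gene ATSBT5.2 rose, while the wall acetylation gene TBL26, the histone gene HTB11 and the transporter gene AT1G66760 fell. These are examples and differ in firmness. Of 23 alternative settings described below, IAGLU was called in 6, ATSBT5.2 in 9, TBL26 and HTB11 in 12, AT1G66760 in 17 and AT5G55450 in 23. The called rises had a median log2 fold change of 0.93 (0.40 to 4.07) and the called falls one of -0.97 (-2.36 to -0.47), where the median of all probe sets tested was 0.01. Of the 89, 17 rises and 22 falls were over 2-fold. In bulk leaf RNA, fewer cells of a type and less RNA per cell cannot be told apart, for these and all later values.

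Most calls lay just inside the threshold. An unadjusted p under 0.05 was found for 2989 probe sets (21.1%), and 54 of the 89 calls had an adjusted p over 0.04. In 73 of the 89, all 6 transgenic arrays lay beyond all 3 wild-type arrays, in 32 of the 42 rises and 41 of the 47 falls. The arrays of both sets overlapped in the other 16. Over all probe sets tested, 1176 were separated in this way (8.31%), 644 above wild type (4.55%) and 532 below (3.76%). That split followed the scaling of the arrays, being 470 above and 680 below after centring each array on its median.

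The number of calls depended on single arrays of every group. Leaving out array 1 gave 1866 calls when it was that of calpain overexpressing leaves and 429 when it was that of calpain null leaves. Leaving out array 2 or 3 gave 10 or 18 calls for calpain overexpressing and 25 or 11 for calpain null leaves. Leaving out the wild-type arrays numbered 1, 2 and 3 gave 5, 3 and 3. Without the arrays numbered 1 of both transgenic lines, 2925 of 13940 tested probe sets passed (21.0%), with 1464 higher (10.5%) and 1461 lower (10.5%). Those 2 arrays were picked because earlier results had shown them nearest wild type, which by itself raises the count, so the values on all 9 arrays are the ones reported. Of the 89 probe sets, 86 were tested in that fit, and all 86 were called in it. As that fit reused the other arrays and left out those nearest wild type, this is no separate support for the 89. Only 3 probe sets were called under each of the 23 alternative settings run: AT5G55450 and 259646_at, which rose, and 259878_at, which fell.

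**Figure D2:**
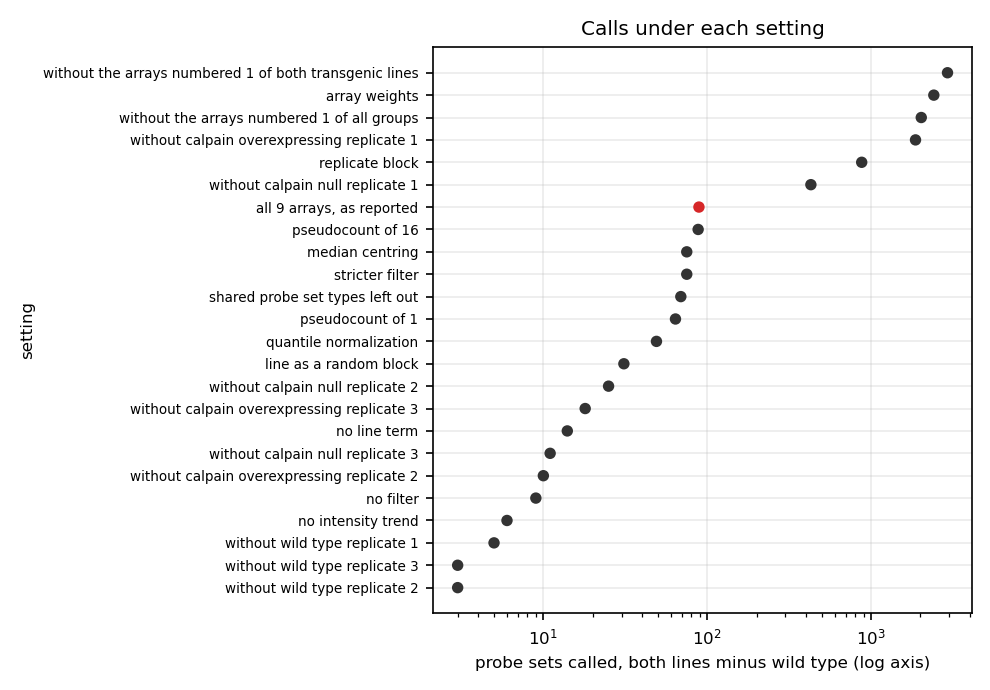
Number of probe sets called for the mean of both lines minus wild type under each setting, on a log axis, with the reported fit of all 9 arrays in red. The count ran from 3 without the wild-type array numbered 2 or 3 to 2925 without the arrays numbered 1 of both transgenic lines, around the reported 89.

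The naming rule picked 4 probe sets with no listed gene, the 2 rises and 2 falls with the smallest p among the called probe sets without one. Probe set 259646_at had signals of 122, 106 and 110 in wild type, 1992, 2259 and 2272 in calpain null, and 1654, 1909 and 1677 in calpain overexpressing leaves. Every transgenic array was far above every wild-type array, and the 2 lines lay next to each other. The log2 fold change of the mean of both lines was 4.07 (SE 0.09, adjusted p = 2.35e-10), a 16.8-fold rise. Probe set 259878_at went the other way, from 104, 98.2 and 139 in wild type to 14.3, 23.3 and 26.9 in calpain null and 21.1, 11.1 and 20.8 in calpain overexpressing leaves. It fell by 2.36 on the log2 scale (SE 0.22, adjusted p = 0.00165), with no overlap between transgenic and wild-type arrays. The annotation used here lists no gene for either, and none was assigned.

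The other 2 of these probe sets were carried by the calpain overexpressing line. Probe set 252607_at had 7.66, 12.1 and 10.4 in wild type, 13.6, 22.9 and 27.2 in calpain null, and 98.3, 235 and 241 in calpain overexpressing leaves (2.29 on the log2 scale for both lines, adjusted p = 0.0138). Probe set 245576_at had 318, 248 and 221 in wild type, 257, 172 and 222 in calpain null, and 2.64, 11.4 and 17.4 in calpain overexpressing leaves (-2.33, adjusted p = 0.0161). The calpain null arrays of the latter overlapped those of wild type, so its average over both lines describes neither line. The lines themselves differed by 2.91 and -4.12 on the log2 scale, calpain overexpressing minus calpain null, with adjusted p of 0.00300 and 0.000557. The wild-type signals of 252607_at and its calpain null signal of 13.6 lay below 17.6, the level at which a probe set counted as measured. It was therefore tested through transgenic arrays alone. The calpain overexpressing signals of 245576_at also lay below 17.6. The folds of both probe sets thus depend on the pseudocount of 3.63 added before taking log2.

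Named genes were 12 rises and 15 falls with 1 listed gene, all 6 transgenic arrays on one side of wild type and a signal at or above the median of the table in at least 1 group, ordered by the smaller of the 2 lines' changes. For loci without a symbol, the protein family given is background knowledge of the locus and is not part of the annotation used. AT5G55450 was called in all 23 alternative settings and the other 26 in 6 to 17 of those in which they were tested. That was all 23 except for AT4G29610, tested in 17 and called in 6, and AT3G28270, tested in 18 and called in 8. None was called for the difference between the lines, and in 17 the 95% interval of that difference included 0. A call on the average does not show a change in each line by itself. AT5G55450 was the only named gene with an adjusted p under 0.05 in limma for calpain null leaves alone against wild type (0.0131). For calpain overexpressing leaves alone, some passed and some did not, such as IAGLU (0.0274) and AT3G16670 (0.127).

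**Figure D3:**
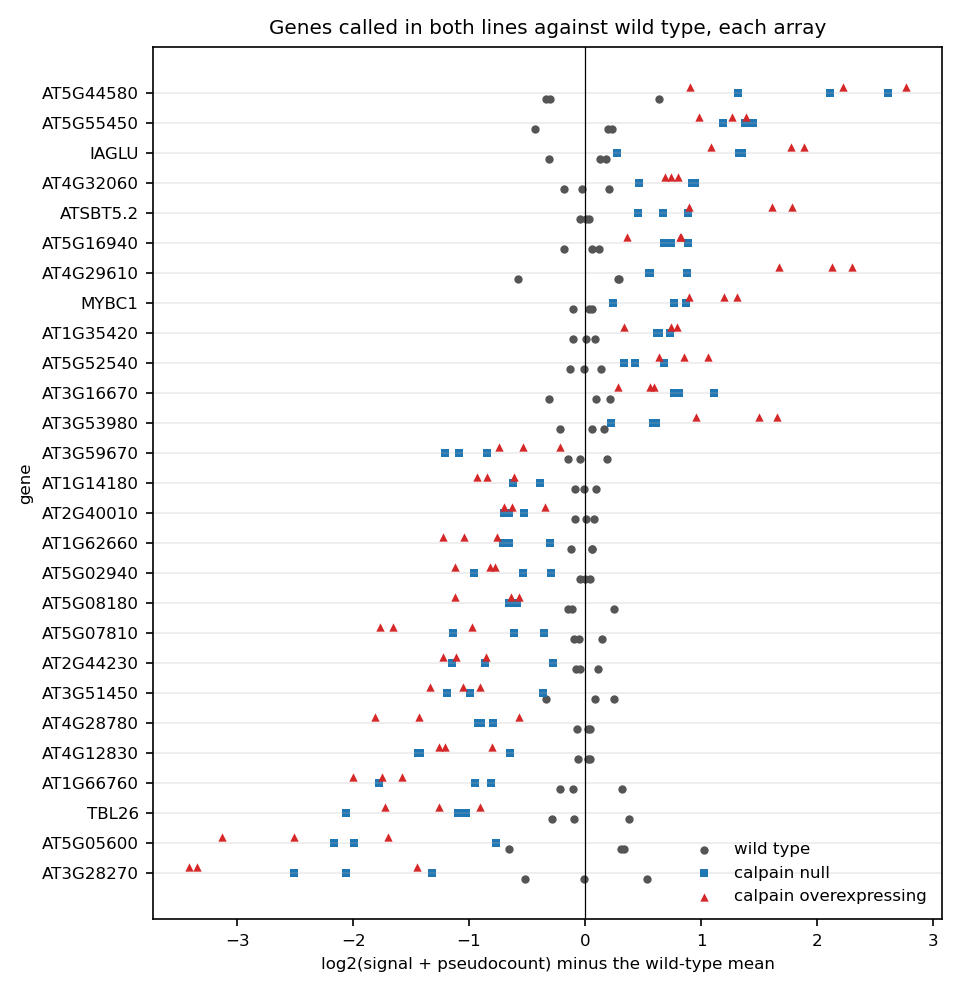
Each row is 1 of the 27 named genes, with the 9 arrays drawn as log2(signal + pseudocount) minus the wild-type mean, wild type in grey, calpain null in blue and calpain overexpressing in red. Transgenic arrays lie right of all wild-type arrays for the 12 rises and left of them for the 15 falls, AT3G51450 being among those where the gap is small.

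Lipid-transfer-like proteins are small secreted proteins with a pocket that can hold lipids. AT5G55450, of this family, had 451, 716 and 699 in wild type, 1396, 1586 and 1673 in calpain null, and 1205, 1602 and 1471 in calpain overexpressing leaves. The 6 transgenic arrays all lay above the 3 wild-type arrays, and the lines overlapped each other. The rise was 2.42-fold (log2 fold change 1.28, SE 0.15, adjusted p = 0.0100), at 1.34 in calpain null and 1.21 in calpain overexpressing leaves. The difference between the lines was -0.13, with a 95% interval of -0.50 to 0.25. AT3G53980, of the same family, had 35.1, 28.4 and 38.0 in wild type, 39.8, 53.2 and 52.4 in calpain null, and 68.6, 102 and 114 in calpain overexpressing leaves (0.92, adjusted p = 0.0459). Its calpain null array numbered 1 lay just above the highest wild-type array, and the calpain overexpressing arrays lay above all others. SHN3, an AP2/ERF-type factor of the SHINE clade known for control of cutin and wax genes, was called at lower signals. It had 3.26, 3.58 and 7.34 in wild type, 22.0, 17.7 and 11.3 in calpain null, and 14.0, 26.6 and 23.3 in calpain overexpressing leaves (1.44, SE 0.29, adjusted p = 0.0498). All 6 transgenic arrays were above wild type, but the wild-type signals were below 17.6, the level at which a probe set counted as measured, so this fold depends on the pseudocount. It was 1 of 3 tested surface lipid genes, and the other 2, WSD1 and AT4G13840, were not called.

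IAGLU encodes an enzyme that joins glucose to the auxin indole-3-acetic acid. Its signals were 25.5, 37.3 and 36.0 in wild type, 40.2, 89.0 and 87.3 in calpain null, and 73.2, 120 and 130 in calpain overexpressing leaves. The calpain null array numbered 1 lay just above wild type and the other 5 transgenic arrays well above it. IAGLU rose by 1.29 on the log2 scale (SE 0.25, adjusted p = 0.0498), the weakest call among the named rises. Among 7 tested Aux/IAA, SAUR and GH3 auxin response genes none was called, and their median log2 fold change was 0.55, the highest of the 39 lists with at least 5 tested members. IAA29, an Aux/IAA repressor of auxin response, had 9.21, 4.05 and 8.77 in wild type, 17.9, 138 and 153 in calpain null, and 18.3, 68.3 and 60.1 in calpain overexpressing leaves. All 6 transgenic arrays were above wild type, those numbered 1 by far the least, and the log2 fold change of 2.50 missed the threshold (adjusted p = 0.0704). The wild-type signals of IAA29 lay below 17.6, so this fold depends on the pseudocount. WES1, a GH3-type enzyme that joins auxin to amino acids, had means of 30.1 in wild type, 94.2 in calpain null and 46.1 in calpain overexpressing leaves (0.94, adjusted p = 0.131), with overlapping arrays. GH3.3 (-0.36), IAA18 (-0.09) and GH3.9 (-0.03) of the same list had values below 0, none called. Without the arrays numbered 1 of both lines, 3 of the 7 were called higher, against 10.5% of all probe sets tested in that fit. The arrays left out had been picked for lying nearest wild type, so this count is no separate support.

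AT5G44580 was first among the named rises by the smaller of the 2 lines' changes. Its signals were 110, 220 and 113 in wild type, 354, 616 and 873 in calpain null, and 265, 667 and 975 in calpain overexpressing leaves. The arrays numbered 1 of both lines were the lowest of their lines, and all 6 were above wild type. The log2 fold change was 1.99 (SE 0.38, adjusted p = 0.0487), with 2.01 in calpain null and 1.97 in calpain overexpressing leaves and a line difference of -0.05 (95% interval -1.01 to 0.92). AT4G32060, a regulator of calcium uptake into mitochondria, had 281, 368 and 313 in wild type, 617, 606 and 443 in calpain null, and 517, 537 and 557 in calpain overexpressing leaves. Here the transgenic arrays numbered 1 did not stand apart, and the rise was 0.76 on the log2 scale (SE 0.12, adjusted p = 0.0358). Among 7 tested calmodulin-like and calcium genes, a list that does not hold AT4G32060, none was called and the median was -0.09.

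Subtilases are secreted serine proteases. ATSBT5.2 had 17.1, 16.3 and 17.5 in wild type, 24.7, 29.3 and 34.5 in calpain null, and 34.9, 59.4 and 67.4 in calpain overexpressing leaves. All calpain overexpressing arrays lay above all calpain null arrays, and these above wild type. It rose by 1.05 on the log2 scale (SE 0.20, adjusted p = 0.0459) and was the only 1 of 7 tested subtilases called, the median of the 7 being 0.11. The wild-type signals of ATSBT5.2 lay just below 17.6, so it was tested through the transgenic arrays alone and its fold depends on the pseudocount. MYBC1, a MYB-type transcription factor, showed the same order of groups, with 32.8, 36.5 and 37.2 in wild type, 42.7, 63.0 and 67.8 in calpain null, and 69.1, 86.2 and 93.4 in calpain overexpressing leaves (0.88, SE 0.16, adjusted p = 0.0439). The line difference of MYBC1 was 0.51 (95% interval 0.11 to 0.90) and was not called (adjusted p = 0.306).

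The remaining named rises were AT5G16940, AT4G29610, AT1G35420, AT5G52540 and AT3G16670, with log2 fold changes from 0.64 to 1.35 and adjusted p from 0.0407 to 0.0487. AT4G29610 had 10.1, 3.90 and 10.1 in wild type, 12.9, 12.9 and 17.1 in calpain null, and 32.3, 45.6 and 51.7 in calpain overexpressing leaves. Only its calpain overexpressing arrays reached the level at which a probe set counted as measured. It was therefore tested through that line alone, and its log2 fold change of 1.35 depends on the pseudocount. AT1G35420, an alpha/beta-hydrolase, had 203, 232 and 220 in wild type, 365, 336 and 341 in calpain null, and 276, 368 and 380 in calpain overexpressing leaves, both lines overlapping above wild type. AT3G16670 went from 990, 1426 and 1311 in wild type to 2156, 2666 and 2091 in calpain null and 1493, 1856 and 1818 in calpain overexpressing leaves. In AT3G16670 the calpain null arrays were the highest of the 3 groups, with changes of 0.90 and 0.48 in calpain null and calpain overexpressing leaves.

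Trichome birefringence-like proteins add acetyl groups to wall polysaccharides. TBL26 had 85.4, 97.8 and 138 in wild type, 49.6, 47.2 and 22.4 in calpain null, and 54.2, 29.2 and 41.8 in calpain overexpressing leaves. The lines overlapped each other below wild type. TBL26 fell by 1.34 on the log2 scale (SE 0.25, adjusted p = 0.0459), by 1.39 in calpain null and 1.30 in calpain overexpressing leaves. It was the only call among 18 tested probe sets of the family, whose median was -0.03.

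The largest falls among named genes were AT3G28270 and AT5G05600. AT3G28270 had 63.7, 28.8 and 42.5 in wild type, 15.1, 7.54 and 4.53 in calpain null, and 13.5, 0.736 and 0.934 in calpain overexpressing leaves (-2.35, SE 0.45, adjusted p = 0.0487). AT5G05600, of the 2-oxoglutarate-dependent oxygenases that include enzymes oxidising jasmonate, had 103, 50.1 and 101 in wild type, 17.6, 45.9 and 15.2 in calpain null, and 11.2, 5.99 and 22.3 in calpain overexpressing leaves (-2.05, SE 0.37, adjusted p = 0.0459). Transgenic arrays were below wild type in both genes, the calpain null array numbered 2 of AT5G05600 only just. All 6 transgenic arrays of AT3G28270 and several of AT5G05600 lay below 17.6, where folds depend on the pseudocount. AT3G28270 was therefore tested through its wild-type arrays alone. AT1G66760, a MATE-type efflux transporter, had 99.5, 108 and 146 in wild type, 58.5, 64.5 and 31.3 in calpain null, and between 26.3 and 36.5 in calpain overexpressing leaves. The groups did not overlap with wild type, and the fall of 1.48 (SE 0.21, adjusted p = 0.0241) had the smallest p of the named falls.

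AT4G28780, a GDSL-type lipase, was another of the named falls. It had 288, 306 and 311 in wild type, 173, 160 and 158 in calpain null, and 202, 109 and 83.3 in calpain overexpressing leaves (-1.07, SE 0.21, adjusted p = 0.0487). AT4G12830, of the alpha/beta-hydrolases, had 79.1, 74.3 and 80.1 in wild type, 48.4, 26.8 and 26.4 in calpain null, and 43.2, 30.3 and 31.6 in calpain overexpressing leaves (-1.13, SE 0.19, adjusted p = 0.0358). In both genes the wild-type arrays lay close together, and in AT4G12830 the arrays numbered 1 were the nearest to them in each line. AT1G62660, a vacuolar invertase that splits sucrose, had 126, 144 and 144 in wild type, 86.0, 111 and 82.9 in calpain null, and 79.9, 64.8 and 57.0 in calpain overexpressing leaves (-0.78, adjusted p = 0.0388). Its line difference was -0.45 (95% interval -0.79 to -0.12, adjusted p = 0.279), calpain overexpressing leaves being the lower.

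AT2G40010, of the ribosomal stalk protein P0 type, had 92.1, 82.2 and 87.9 in wild type, 52.6, 59.4 and 54.1 in calpain null, and 68.0, 55.3 and 52.5 in calpain overexpressing leaves (-0.59, SE 0.12, adjusted p = 0.0498). AT5G08180, of the L7Ae type found in nucleolar RNA-protein complexes, had 307, 238 and 232 in wild type, 162, 162 and 170 in calpain null, and 164, 116 and 172 in calpain overexpressing leaves (-0.70, SE 0.14, adjusted p = 0.0498). The 2 lines were on one level in both genes, apart from the calpain overexpressing array numbered 2 of AT5G08180. The remaining named falls, AT3G51450, AT2G44230, AT5G07810, AT5G02940, AT1G14180 and AT3G59670, had log2 fold changes from -1.08 to -0.67 and adjusted p from 0.0459 to 0.0498. AT3G59670 was lower in calpain null leaves (70.8, 54.2 and 59.1) than in calpain overexpressing leaves (111, 76.0 and 88.3), with 149, 117 and 126 in wild type.

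Histone genes gave the lowest median of any list, -0.60 over 6 tested members, and cell cycle genes, a list that shares HTB11, HTB4, HTB1 and HTB2 with it, one of -0.43 over 13. HTB11, a histone H2B gene, was the only call in either. It had 475, 481 and 480 in wild type, 397, 332 and 315 in calpain null, and 309, 234 and 273 in calpain overexpressing leaves. The wild-type arrays were nearly equal, calpain null leaves lay below them and calpain overexpressing leaves below both. HTB11 fell by 0.64 on the log2 scale (SE 0.11, adjusted p = 0.0388), by 0.46 in calpain null and 0.82 in calpain overexpressing leaves. HTB4, another H2B gene, had 1084, 976 and 976 in wild type, 821, 801 and 728 in calpain null, and 912, 613 and 650 in calpain overexpressing leaves. All 6 transgenic HTB4 arrays were below wild type, but the log2 fold change of -0.43 was not called (adjusted p = 0.0966). HTB1 (-0.73), HTB2 (-0.69) and the centromeric histone gene HTR12 (-0.57) had adjusted p from 0.122 to 0.226, and their calpain null or overexpressing arrays overlapped wild type. HIS1-3, a linker histone gene, lay on the other side, with means of 4.55 in wild type, 22.3 in calpain null and 25.3 in calpain overexpressing leaves (1.40, adjusted p = 0.221). Its wild-type mean lay below 17.6, so this fold also depends on the pseudocount.

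Of the 13 cell cycle genes, 3 had all transgenic arrays below wild type (23.1% of the list, against 3.76% of all probe sets tested), namely HTB11, HTB4 and the cell cycle inhibitor gene SIM. Of these, HTB11 and HTB4 are also in the histone list. A log2 fold change below 0 was found for 12 of the 13, where the median of all probe sets tested was 0.01. The mitotic kinase genes AUR1, AUR2 and AUR3 had values from -0.46 to -0.22 and the topoisomerase gene TOPII -0.64, none called. Without the arrays numbered 1 of both lines, 7 of the 13 were called lower, against 10.5% of all probe sets tested in that fit. Those arrays were left out for lying nearest wild type, so this count is no separate support for a shift.

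**Figure D4:**
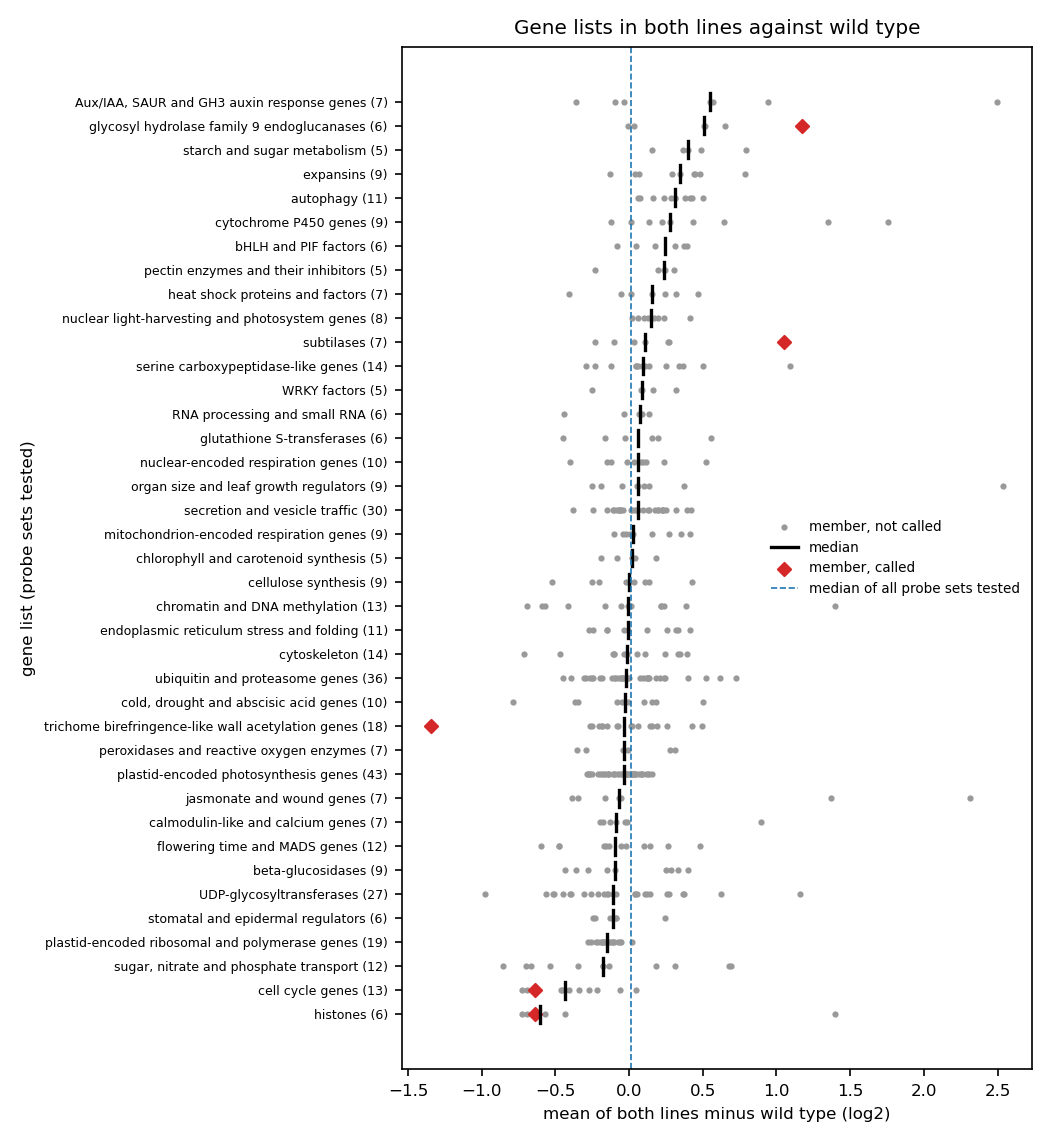
Each row is 1 of the 39 gene lists with at least 5 tested members (number in brackets), with members as points at the log2 fold change of the mean of both lines over wild type, called members as red diamonds and the list's median as a black bar. The medians run from -0.60 for histones to 0.55 for auxin response genes around the dashed median of all probe sets, 0.01, and called members number at most 1 per list.

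Lists of genes were matched by symbol, and 39 had at least 5 tested members. Of these, 34 held no called gene, and the others held 1 each. The median log2 fold change lay within 0.2 of 0 in 29 lists, above 0.2 in 8 and below -0.2 in 2. Median centring or quantile normalization changed the sign of 2 medians, neither larger than 0.024 in size.

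Starch and sugar metabolism genes had a median of 0.40 over 5 tested, none called. In 3 of the 5 all transgenic arrays lay above wild type (60.0% of the list, against 4.55% of all probe sets). PWD, a kinase that phosphorylates starch for its breakdown, had 178, 188 and 181 in wild type, 218, 201 and 193 in calpain null, and 247, 291 and 321 in calpain overexpressing leaves (0.40, adjusted p = 0.0832). DPE1, a plastid enzyme that rearranges maltooligosaccharides, had 165, 181 and 159 in wild type, 229, 193 and 234 in calpain null, and 198, 227 and 229 in calpain overexpressing leaves (0.37, adjusted p = 0.0972). The lines lay at the same level for DPE1, whereas for PWD the calpain overexpressing arrays were above the others. APL4, a subunit of the enzyme that makes ADP-glucose, had means of 16.9 in wild type, 23.9 in calpain null and 42.0 in calpain overexpressing leaves (0.79, adjusted p = 0.109).

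Among 12 tested genes of sugar, nitrate and phosphate transport, with a median of -0.18, none was called. SWEET17, a vacuolar fructose carrier, had 264, 300 and 387 in wild type, 215, 214 and 165 in calpain null, and 208, 213 and 145 in calpain overexpressing leaves. Its 6 transgenic arrays lay below wild type and both lines lay together, at a log2 fold change of -0.70 (adjusted p = 0.0685). SWEET16, another vacuolar sugar carrier, had -0.86 (adjusted p = 0.0848) and GTR1, which imports glucosinolates into cells, -0.54 (adjusted p = 0.109). In both, the arrays numbered 1 lay within or next to the wild-type range, with SWEET16 at 98.0 in calpain null and 85.2 in calpain overexpressing leaves against a wild-type mean of 121.

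Autophagy genes had a median of 0.31 over 11 tested, all 11 between 0.06 and 0.50 and none called. ATG8F, one of the small ubiquitin-like proteins that coat forming autophagosomes, had 345, 349 and 372 in wild type, 416, 536 and 582 in calpain null, and 361, 625 and 561 in calpain overexpressing leaves (0.50, adjusted p = 0.125). The calpain overexpressing array numbered 1 lay within the wild-type range and the other 5 above it. ATG8C (0.41), APG8H (0.43) and ATG8D (0.38) had adjusted p from 0.129 to 0.206. Without the arrays numbered 1 of both lines, 6 of the 11 were called higher, against 10.5% of all probe sets tested in that fit. As that fit left out the arrays nearest wild type, the count is no separate support. Such counts are not given for every list.

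Among wall genes, the 9 tested expansins, which loosen walls in growing cells, had a median of 0.34, none called, and none with all transgenic arrays on one side of wild type. EXPA8 had 0.79 (adjusted p = 0.139) and EXPA4 0.44 (adjusted p = 0.0778). The 9 cellulose synthesis genes had a median of -0.00, and CSLA03, a mannan synthase type gene, had -0.52 (adjusted p = 0.0928). The 4 tested xyloglucan endotransglucosylases, which cut and rejoin wall xyloglucan, had a median of 0.05, none called. XTH19 had the smallest p of the 4 at 2.37 (adjusted p = 0.0778), an average of 4.64 in calpain overexpressing and 0.11 in calpain null leaves. Its wild-type and calpain null signals all lay below 17.6. It was therefore tested through the calpain overexpressing arrays alone, and these values depend on the pseudocount. XTH32 had 0.28 (adjusted p = 0.136). XTH16 had all 6 transgenic arrays below wild type, at 228, 248 and 238 in calpain null and 253, 205 and 168 in calpain overexpressing leaves against 310, 316 and 296 (-0.47, adjusted p = 0.0819). The 6 tested endoglucanases of glycosyl hydrolase family 9 had a median of 0.51 and 1 call, GH9B8. By line the median was 0.79 in calpain overexpressing and 0.08 in calpain null leaves, and GH9B8, GH9C2 and GH9B13 were called for the difference between the lines, so the average describes neither line.

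Photosynthesis genes lay near 0. Plastid-encoded photosynthesis genes had a median of -0.04 over 43 probe sets, from -0.28 to 0.16, and plastid-encoded ribosomal and polymerase genes -0.15 over 19. No gene of either list was called, and psbC and psbZ of photosystem II were the only 2 with all transgenic arrays below wild type, which is 4.7% of the first list against 3.76% of all probe sets tested. The 8 nuclear light-harvesting and photosystem genes had a median of 0.15, none called. Stomatal and epidermal regulators, the list nearest to the known role of DEK1, had a median of -0.11 over 6 tested. SPCH, which starts the stomatal lineage, had -0.24 (adjusted p = 0.242) and FMA, which ends it in guard cells, -0.23 (adjusted p = 0.359), neither called.

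In other lists, single genes moved further than their neighbours without passing the threshold. CYP71B22, a cytochrome P450 gene, had 50.0, 76.7 and 85.8 in wild type, 126, 441 and 295 in calpain null, and 123, 352 and 280 in calpain overexpressing leaves (1.75, adjusted p = 0.0652). All 6 transgenic arrays were above wild type, the arrays numbered 1 of both lines by the least. ARL, an organ size gene, had 25.9, 41.0 and 27.2 in wild type, 27.2, 280 and 235 in calpain null, and 148, 424 and 469 in calpain overexpressing leaves (2.54, adjusted p = 0.0720), the calpain null array numbered 1 lying within wild type. UGT72E1, a glycosyltransferase of phenylpropanoids, had 23.3, 23.1 and 21.8 in wild type, 44.6, 86.8 and 62.6 in calpain null, and 23.9, 70.3 and 66.6 in calpain overexpressing leaves (1.16, adjusted p = 0.0811). The actin gene ACT11 had 152, 181 and 153 in wild type, 142, 97.0 and 104 in calpain null, and 118, 80.6 and 61.3 in calpain overexpressing leaves (-0.71, adjusted p = 0.0833). In all 4 genes the arrays numbered 1 were the nearest to wild type of their lines.

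Whether a call over both lines was shared by them was read from the direct contrast of calpain overexpressing with calpain null leaves, which uses no wild-type array in its estimate. That contrast called 74 of 14151 probe sets (0.523%), 35 higher and 39 lower. Of the 89 probe sets called over both lines, 16 (18.0%) were also called there. Calpain overexpressing leaves were the farther from wild type in 14 of the 16 and calpain null leaves in 2, AT1G35710 and 263776_s_at. The other 73 were not called for a line difference, and the median size of that difference was 0.27 in them and 0.13 over all probe sets tested. Not being called does not show that the lines were alike, and the 95% interval of the difference lay within 1 on the log2 scale in 55 of the 89.

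**Figure D5:**
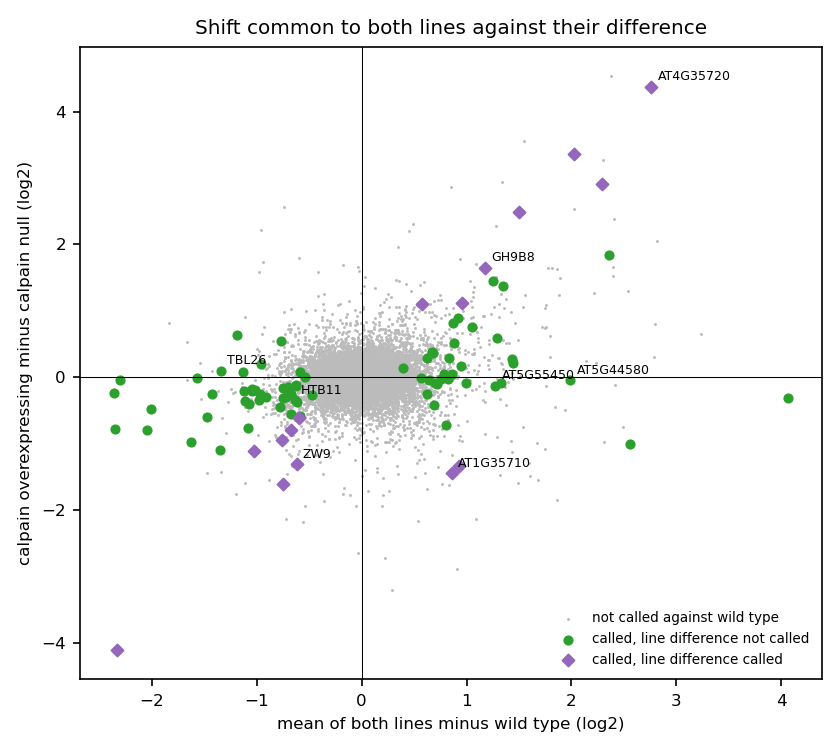
Each point is a probe set, with the log2 fold change of the mean of both lines over wild type on the x axis and that of calpain overexpressing minus calpain null on the y axis. Called probe sets with no called line difference (green, 73) lie mostly along the horizontal 0 line, and the 16 with a called line difference (purple) lie off it, such as AT4G35720 above and AT1G35710 below.

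Genes whose call rested on 1 line were, for calpain overexpressing leaves, AT4G35720, AT5G24240, AT4G32460, GH9B8, AT5G06270, ZW9, AT3G26935 and AT2G30600. The wild-type and calpain null signals were 0.521 to 6.28 for AT4G35720 and 0.828 to 8.82 for AT5G24240. All of these lay below the level at which a probe set counted as measured. Both genes were therefore tested through the calpain overexpressing arrays alone, and their folds depend on the pseudocount. AT5G06270 had 116, 126 and 140 in wild type, 133, 121 and 135 in calpain null, and 295, 297 and 260 in calpain overexpressing leaves. Its calpain null arrays lay within the wild-type range, so the log2 fold change of 0.58 over both lines is an average of 1.13 and 0.03. GH9B8 had 57.5, 101 and 93.7 in wild type, 97.0, 118 and 101 in calpain null, and 245, 340 and 462 in calpain overexpressing leaves, with 2.00 and 0.35 for the lines. AT2G30600 had 232, 250 and 303 in wild type, 252, 194 and 200 in calpain null, and 110, 131 and 126 in calpain overexpressing leaves, with -1.07 and -0.28 for the lines. In these genes only the calpain overexpressing arrays stood clear of wild type. The receptor kinase gene AT1G35710 was the reverse, at 20.3, 27.8 and 27.0 in wild type, 79.5, 77.1 and 88.2 in calpain null, and 24.3, 34.1 and 25.4 in calpain overexpressing leaves. These genes were listed after their values had been seen.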

How the data were processed

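Total leaf RNA was labelled with biotin and hybridised to 9 Affymetrix ATH1 arrays, per the labels' protocols. The deposited intensity values are linear signals made with MAS5 in GCOS, per the submitters' processing notes, and the mean after trimming 2% at each end was 100.01 on every array, so changes are relative to the rest of an array. A pseudocount of 3.63, the table's 20th percentile, was added before taking log2, which understates changes of dim genes. Probe sets reaching 17.6, the 40th percentile, on at least 3 arrays were tested, and 64 controls were left out. The platform annotation named a single gene (1) for 13513 probe sets and more for 503, leaving 8794 without a name; 13436 matched the TAIR10.1 RefSeq table.

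The model, fitted in limma 3.58.1 under R 4.3.3, held a mean for each of 3 genotypes (6 residual degrees of freedom, intensity trend), after the fit was tested on simulated data. The contrasts were two-sided, the mean of both lines minus wild type and calpain overexpressing minus calpain null. Named genes were up to 15 called rises and 15 falls with 1 gene, all 6 transgenic arrays on one side of wild type and a group mean at or above 34.4, ranked by the smaller line's change, plus up to 4 list members with the smallest p and 2 unlisted probe sets each way; not every list member is described. Genes outside this rule were chosen after their values were seen. Members, lists and tests were chosen with earlier results of these data known, and the lists of glycosyl hydrolase family 9, trichome birefringence-like, subtilase, histone, serine carboxypeptidase-like and beta-glucosidase genes were added after called genes had been seen. Deviations of same-numbered arrays from their group means correlated at -0.128 to 0.371 over 9 pairs, over 0.1 in 3. The highest, 0.371 and 0.324, were both between arrays numbered 1, of calpain overexpressing with calpain null and with wild type. The labels do not say that a number marks a shared pot, day or batch, so the numbers were not taken to pair arrays. Whether same-numbered arrays share an effect was not tested. With 3 arrays in a group, their small number limits the precision. Alternatives covered pseudocount, filter, scaling, trend, weights, replicate block, line term, shared probe set types and arrays left out. Plots used Python 3.11.15 and matplotlib 3.10.9.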

Additional observations from a re-analysis of the deposited data

Results flagged for a closer look

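Among the 31 named probe sets examined over the 6 transgenic arrays, AT5G08180 had 1 array far from the others. Its lowest transgenic signal, on the calpain overexpressing array numbered 2, was 116, against 162 to 172 on the other 5. The gap passed Dixon's critical value of 0.625 for 6 samples, which chance passes in about 1 of 20 groups.

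The lines differed in 2 of the probe sets without a listed gene. For 252607_at the log2 difference of calpain overexpressing minus calpain null was 2.91 (limma adjusted p = 0.00300), the calpain overexpressing line being the farther above wild type. For 245576_at it was -4.12 (limma adjusted p = 0.000557), with calpain null arrays overlapping wild type. Signals below 17.6 enter both differences, which therefore depend on the pseudocount.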

How the results depend on the processing

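For both lines minus wild type, 89 calls became 9 with no filter, 49 with quantile normalization, 6 with no intensity trend, 2413 with array weights, 14 with no line term, 31 with line as a random block (consensus correlation -0.061), 2023 without the arrays numbered 1 of all groups and 2925 without those of both transgenic lines. They ran from 3 to 1866 with 1 array left out. The 74 calls between the lines became 39 with no filter, 238 with array weights, 351 and 182 without those arrays, and 22 to 153 with 1 array left out. The 1176 probe sets separated from wild type became 4013 without the arrays numbered 1 of both lines, 5045 without those of all groups, and 1272 to 2485 with 1 array left out, fewer arrays being easier to separate. With the replicate number as a block, the counts were 876 and 187, but the labels do not say that the numbers pair arrays. Pseudocounts of 1 and 16, a stricter filter, median centring and leaving out shared probe set types gave 64 to 88 calls, and no named value changed sign under any setting run. The cause of these changes was not tested.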
